A study of Sus scrofa with 6 samples.

Results

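The genes described here handle fatty acids in the muscle fibre: uptake (*CD36*, *LPL* and its inhibitor *ANGPTL4*), binding and activation (*FABP3*, *ACSL1*), lipid droplet coating (*PLIN2*, *PLIN5*), lipolysis (*PNPLA2*, *LIPE*) and the choice between glucose and fatty acids (*PDK4*). They were taken by symbol as a list of 10 genes, and 9 of the 10 were found among the 30476 Ensembl pig genes of the count table. *CD36* had no identifier under its symbol and was not analysed here. Skeletal muscle was compared between 3 pigs with UCP1 knocked in for expression in adipocytes (UCP1 KI) and 3 wild-type pigs (WT), all aged 6 months, and the tissue was longissimus dorsi, which runs along the spine. The inserted gene encodes uncoupling protein 1, which dissipates the mitochondrial proton gradient as heat, and its expression is described as specific to adipocytes, so muscle carries the allele without being its intended site. *UCP1* itself had no identifier under its symbol, so the targeted gene could not be used to check the labels. The sources used here do not name the promoter of the inserted gene, the sex of the pigs or their litters, nor do they state that every sample came from a separate animal, and p values measure the spread between these samples.

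Fatty acids reach a muscle fibre from triglycerides that lipoprotein lipase splits in the capillary, cross the membrane with the help of CD36, are carried by FABP3 and are activated to acyl-CoA before oxidation or storage. Stored triglyceride lies in droplets coated by perilipins and is released stepwise by adipose triglyceride lipase and hormone-sensitive lipase. Peroxisome proliferator-activated receptors (PPARs) are nuclear receptors that bind fatty acids, and many of the genes described here, *ANGPTL4*, *PLIN2* and *PDK4* among them, are well-known PPAR targets that respond to fasting.

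Counts on genes summed to between 30220951 and 35066624 per pig, and 13402 genes passed a filter on low counts and were tested. Counts were scaled to counts per 1000000 (CPM) with edgeR's TMM factors, lowest at 0.781 for WT replicate 2 and highest at 1.18 for UCP1 KI replicate 2. The 20 most abundant genes held 39.0% to 44.0% of the counts of each UCP1 KI pig and, with WT replicate 2 the highest, 44.5% to 56.5% of those of each WT pig. All 5 muscle identity genes that were found, *ACTA1* among them, were tested, and their summed level was between 48427 and 76619 CPM in every pig.

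Of the 9 lipid handling genes, 2 differed between UCP1 KI and WT pigs by both limits of the study (p under 0.05 before adjustment, log2 fold change beyond 0.5 either way), and both were lipases that were higher in UCP1 KI pigs: *LIPE*, by 2.18-fold, and *PNPLA2*, by 1.49-fold. Of all genes tested, 8.19% passed both limits, 3.84% as higher and 4.34% as lower in UCP1 KI pigs. After Benjamini-Hochberg adjustment of edgeR's quasi-likelihood test over all genes, 0 genes had an adjusted p under 0.05 (1100 had an unadjusted p under 0.05), while DESeq2 gave 127 such genes, neither lipase among them. The same 2 lipases were the members whose groups did not overlap, which held for 15.3% of all genes tested (7.59% higher and 7.69% lower in UCP1 KI pigs). Among the 9 genes, 5 had a positive and 4 a negative log2 fold change, with a median of 0.31 beside -0.02 for all genes. No gene on the list was filtered out, and the lowest count behind any value was 128 reads, for *PLIN5* in WT replicate 3.

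**Figure D1:**
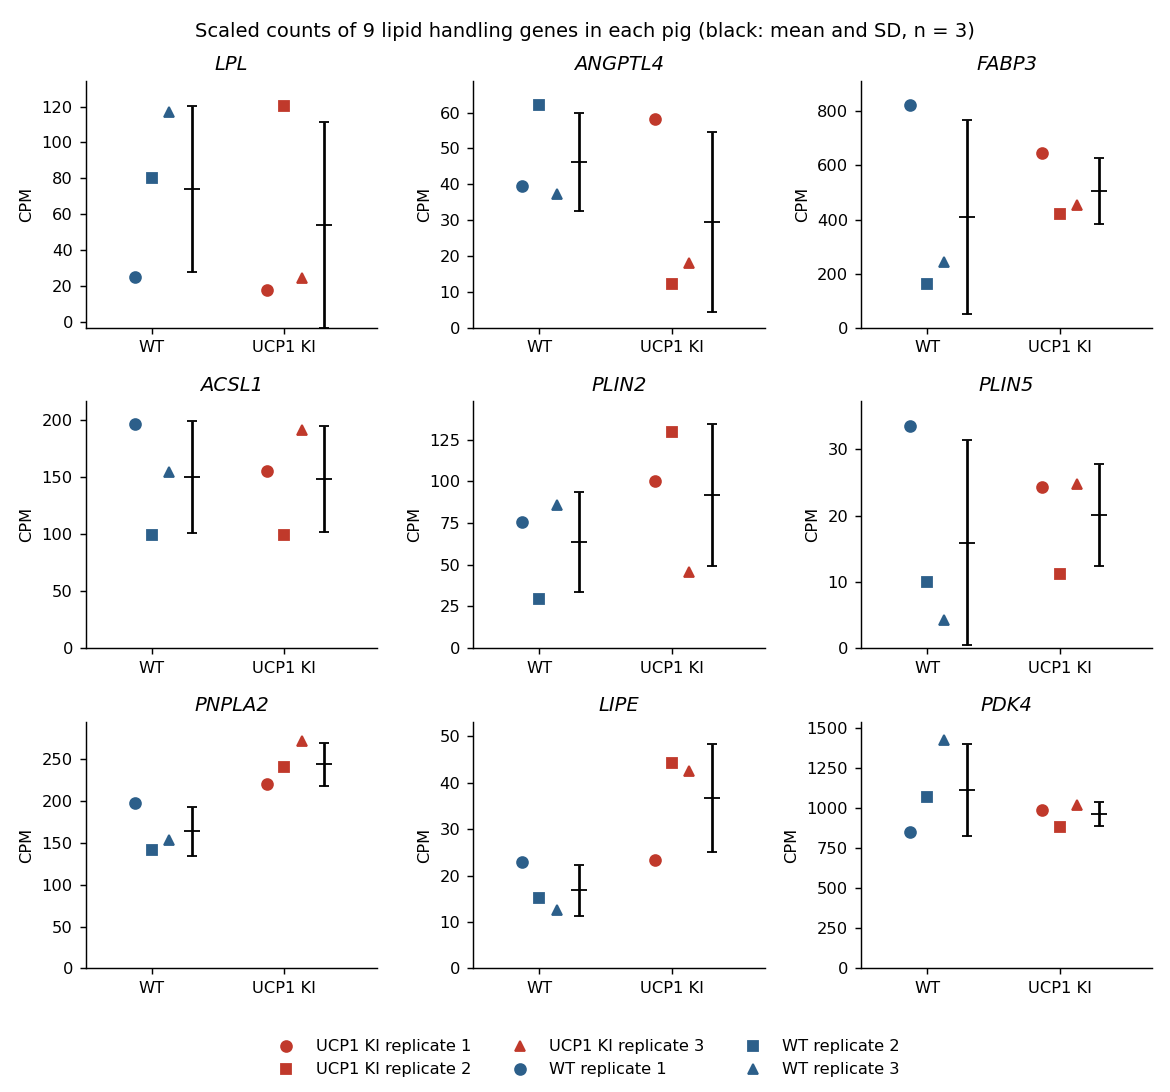
Scaled counts (CPM, vertical axes from 0 or just below) of the 9 genes in each pig, with WT in blue and UCP1 KI in red and the mean and SD (n = 3) in black. The 2 groups do not overlap for *PNPLA2* and *LIPE*, though the nearest *LIPE* values are almost equal, and *LPL* in UCP1 KI replicate 2, at 120.4 CPM, stands far above the other UCP1 KI pigs.

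The genes of this list that passed both limits were lipases that release stored fatty acids, neither with an adjusted p under 0.05. *PNPLA2* (ENSSSCG00000012841), at chr2:513065-517962 of Sscrofa11.1 in the RefSeq annotation, encodes adipose triglyceride lipase, which removes the first fatty acid from triglyceride. Its level was 219.7, 240.3 and 271 CPM in UCP1 KI replicates 1 to 3 against 197, 141 and 153 CPM in WT replicates 1 to 3. Every UCP1 KI pig was above every WT pig, and the spread within groups was small, at the 18.4th percentile of all genes tested on the log2 scale. The means were 244 ± 25.6 and 164 ± 29.2 CPM (SD, n = 3), and the log2 fold change was 0.57 (SE 0.25, 95% interval 0.0019 to 1.14). The edgeR test gave p = 0.0494 and an adjusted p of 0.608, and an exact two-sided permutation test on log2(CPM + 1) gave p = 0.1, the smallest that 3 pigs against 3 allow. This call lies at the limit: it was lost when any of UCP1 KI replicates 1 to 3, WT replicate 2 or WT replicate 3 was left out, with log2 fold changes that stayed between 0.48 and 0.72 over all 6 pigs left out in turn and p values of up to 0.146.

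*LIPE* (ENSSSCG00000003018), at chr6:49543671-49560126, encodes hormone-sensitive lipase, which acts mainly on the diglyceride that PNPLA2 leaves. Its level was 23.3, 44.2 and 42.5 CPM in UCP1 KI replicates 1 to 3, against 23.0, 15.1 and 12.5 CPM in WT replicates 1 to 3. The groups did not overlap, but UCP1 KI replicate 1 and WT replicate 1 were nearly equal, and the difference came from the other pigs. The means were 36.7 ± 11.6 and 16.9 ± 5.46 CPM (SD, n = 3), and the log2 fold change was 1.12 (SE 0.35, 95% interval 0.32 to 1.93; edgeR p = 0.0126, adjusted p = 0.583; exact permutation p = 0.1). The gene passed both limits in all 13 alternatives, with log2 fold changes between 0.94 and 1.40 and p values of edgeR and DESeq2 between 0.00397 and 0.0465. The RefSeq span of *LIPE* lies within that of *ATP5SL*, listed in the table as *DMAC2*, and whether counting used strand is not given in the sources used here. *DMAC2* was at 82.3, 77.3 and 91.9 CPM in UCP1 KI pigs against 68.8, 51.1 and 78.2 CPM in WT pigs (log2 fold change 0.34, SE 0.24, adjusted p = 0.718), with overlapping groups.

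Both lipases are abundant in adipocytes, and intramuscular fat can enter a muscle sample. Of 11 adipocyte markers, 10 were found and 6 were tested, and 0 passed both limits, with 5 of the 6 log2 fold changes negative and a median of -1.0. Their summed level was 45.5, 89.0 and 46.2 CPM in UCP1 KI replicates 1 to 3 against 47.1, 286 and 79.3 CPM in WT replicates 1 to 3, with *RETN* at 0 in every pig and *ADIPOQ* between 1.60 and 15.6 CPM. WT replicate 2 weighed heavily on the negative values, with *FABP4* at 253 CPM against 33.3 to 83.6 CPM in the other pigs. The pig with the most adipocyte marker RNA, WT replicate 2, had the lowest *PNPLA2* and the next to lowest *LIPE*, while the sums of UCP1 KI replicates 1 and 3 and WT replicate 1 were nearly equal. The part of fat cells in the lipase values was not tested. In bulk muscle, fewer cells of a type and less RNA per cell cannot be told apart. Across the 6 pigs, log2 levels of *LIPE* and *PNPLA2* had a Pearson r of 0.93, the highest of the pairs among the 9 genes. That value is a description over pigs of both genotypes and shares the scaling of each library.

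**Figure D2:**
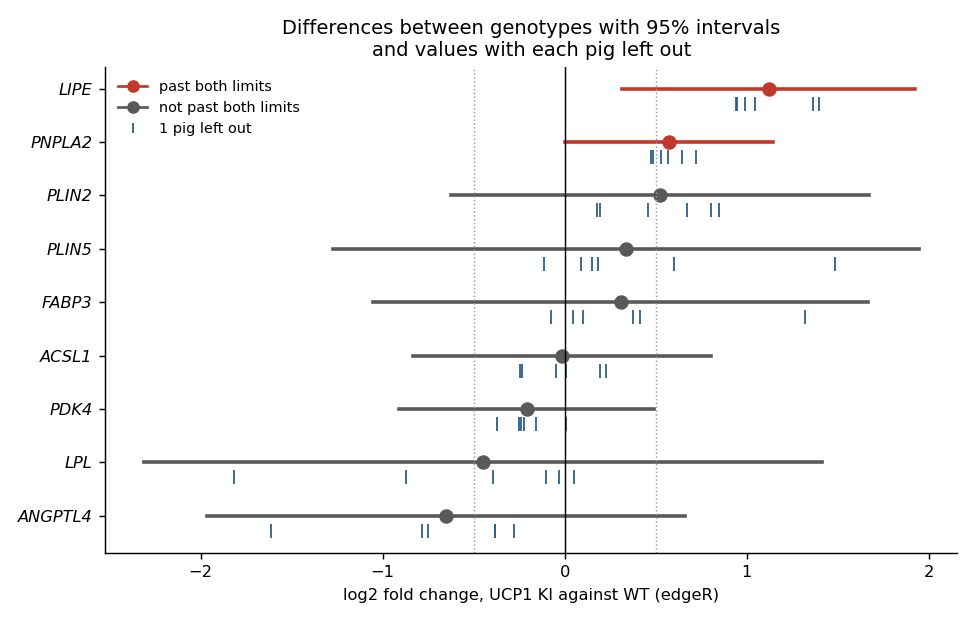
Log2 fold changes of the 9 genes, UCP1 KI against WT, with 95% intervals from edgeR (circles and bars), and the value with each pig left out in turn (ticks). Dotted lines mark the limits of 0.5; *LIPE* stays above 0.94 with any pig left out, while the ticks of *LPL* reach from -1.82 to 0.050.

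Uptake genes varied widely between pigs of the same genotype. *LPL* encodes lipoprotein lipase, made in the fibre and moved to the capillary wall. Its level was 17.8, 120.4 and 24.4 CPM in UCP1 KI replicates 1 to 3 against 24.9, 79.9 and 117 CPM in WT replicates 1 to 3. UCP1 KI replicate 2 had the highest level of all 6 pigs, 6.77 times that of UCP1 KI replicate 1, and the groups overlapped. The log2 fold change was -0.45 (SE 0.80, 95% interval -2.31 to 1.41, adjusted p = 0.892), and without UCP1 KI replicate 2 it was -1.82 and passed both limits.

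*ANGPTL4* encodes a secreted inhibitor of lipoprotein lipase. Its level was 58.2, 12.2 and 18.0 CPM in UCP1 KI replicates 1 to 3 against 39.5, 62.0 and 37.3 CPM in WT replicates 1 to 3. UCP1 KI replicate 1 lay among the WT pigs and the other UCP1 KI pigs lay below them. The log2 fold change was -0.65 (SE 0.57, 95% interval -1.97 to 0.66, adjusted p = 0.771), and without UCP1 KI replicate 1 it was -1.61 and passed both limits. Without UCP1 KI replicate 2 it was -0.28 and did not pass. UCP1 KI replicate 2, highest for *LPL*, was lowest for its inhibitor, and the log2 ratio of *LPL* to *ANGPTL4* within a pig ranged from -1.71 to 3.31 among UCP1 KI pigs alone. Its mean differed by 0.23 between genotypes (exact permutation p = 0.9). The ratio of *LPL* to *GPIHBP1*, which holds the lipase at the capillary, differed by 0.14 (exact permutation p = 0.9).

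*FABP3*, the fatty acid binding protein of heart and muscle cytosol, was at 644, 419 and 455 CPM in UCP1 KI replicates 1 to 3 against 822, 162 and 244 CPM in WT replicates 1 to 3. WT pigs held both the highest and the lowest value, so that the UCP1 KI pigs lay inside the WT range. The means were 506 ± 121 and 409 ± 359.5 CPM (SD, n = 3), and the log2 fold change was 0.31 (SE 0.59, 95% interval -1.05 to 1.67, adjusted p = 0.899). Without WT replicate 1 it was 1.32 and passed both limits. *ACSL1*, which activates long-chain fatty acids to acyl-CoA, was at 155, 98.7 and 191 CPM in UCP1 KI pigs against 196, 98.9 and 154 CPM in WT pigs. Both groups spanned nearly the same range, with a log2 fold change of -0.02 (SE 0.35, 95% interval -0.83 to 0.80, adjusted p = 0.992) that was 0.19 when libraries were scaled by size alone.

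The droplet coats *PLIN2* and *PLIN5* also overlapped between genotypes. *PLIN2*, which coats droplets in most tissues, was at 100.2, 129 and 45.5 CPM in UCP1 KI replicates 1 to 3 against 75.7, 29.6 and 86.1 CPM in WT replicates 1 to 3. UCP1 KI replicates 1 and 2 were above all WT pigs, and UCP1 KI replicate 3 was below WT replicates 1 and 3. The log2 fold change was 0.52 (SE 0.49, 95% interval -0.62 to 1.67, adjusted p = 0.789), and a RefSeq pseudogene overlaps the gene. With each pig left out that value ranged from 0.18 (without WT replicate 2) to 0.85 (without UCP1 KI replicate 3). *PLIN5*, which ties droplets to mitochondria in oxidative tissue, was at 24.3, 11.2 and 24.8 CPM in UCP1 KI pigs against 33.5, 9.97 and 4.27 CPM in WT pigs. WT replicate 1 was 7.84 times WT replicate 3, and the log2 fold change was 0.34 (SE 0.69, 95% interval -1.27 to 1.95, adjusted p = 0.905). Without WT replicate 1 that value was 1.49 and passed both limits. The log2 ratio of *PLIN5* to *PLIN2* within a pig differed by 0.21 between genotypes (exact permutation p = 0.9).

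*PDK4* encodes the inducible kinase that switches off pyruvate dehydrogenase, which spares glucose while fatty acids are burned. Its level was 985, 879.8 and 1021 CPM in UCP1 KI replicates 1 to 3 against 847, 1068 and 1420.3 CPM in WT replicates 1 to 3. The UCP1 KI pigs lay close together, between the extremes of the WT pigs. The means were 962 ± 73.5 and 1112 ± 289 CPM (SD, n = 3), and the log2 fold change was -0.21 (SE 0.30, 95% interval -0.91 to 0.49, adjusted p = 0.867), with 0.059 when libraries were scaled by size alone. The RefSeq span of *PDK4* lies within that of *ASB4*, whose log2 fold change was -0.63 (adjusted p = 0.718). Against *PDK2*, another kinase of pyruvate dehydrogenase in muscle, the log2 ratio within a pig was 3.0, 2.95 and 2.87 in UCP1 KI pigs against 2.31, 3.94 and 3.93 in WT pigs. The difference was -0.45 (exact permutation p = 0.4), with an SD of 0.068 among UCP1 KI pigs and of 0.93 among WT pigs. It ranged from -0.99 to -0.18 with each pig left out. *PDK2* itself was at 170.4, 69.8 and 93.4 CPM in WT replicates 1 to 3, and its spread within groups, at the 73.6th percentile, was wider than that of *PDK4*.

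The spread within genotypes set these genes apart from one another. On the log2 scale, the SD within groups lay between the 92.2nd and 98.4th percentile of all genes tested for *PLIN2*, *ANGPTL4*, *FABP3*, *PLIN5* and *LPL*, in rising order. It lay at the 75.7th percentile for *ACSL1*, the 72.8th for *LIPE* and the 37.2nd for *PDK4*. The extremes fell on different pigs. UCP1 KI replicate 2 was highest for *LPL*, *PLIN2* and *LIPE* and lowest for *ANGPTL4* and *ACSL1*, while WT replicate 1 was highest for *FABP3*, *ACSL1* and *PLIN5* and lowest for *PDK4*. WT replicate 2 was lowest for *FABP3*, *PLIN2* and *PNPLA2*.

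Fibre types differ in their use of fat, slow oxidative fibres relying on it most, and the share of slow fibre RNA differed between pigs of the same genotype. The 6 slow fibre markers found, of 9, summed to 12813, 10795 and 7415 CPM in UCP1 KI replicates 1 to 3 against 17898, 4336 and 5643 CPM in WT replicates 1 to 3. The groups overlapped, and 0 of the 6 markers passed both limits, with all 6 log2 fold changes positive and a median of 0.16. Over the 6 pigs, *FABP3* followed this sum on log2 scales with a Pearson r of 0.96 (exact permutation p = 0.00417, adjusted over 9 relations 0.0375) and a Spearman rho of 0.94 (exact permutation p = 0.0167, adjusted 0.15). Without WT replicates 1 and 2, the pigs farthest from the median sum, r was 0.87 over the remaining pigs. For *PLIN5* r was 0.72 (exact permutation p = 0.115, adjusted 0.346), and for *PDK4* it was -0.73 (exact permutation p = 0.0847, adjusted 0.346). The Spearman rho of *PDK4* was -0.89 (exact permutation p = 0.0333, adjusted 0.15), and its r was -0.83 without WT replicates 1 and 2. For *LIPE* r was 0.43 (exact permutation p = 0.379, adjusted 0.427), and for *PNPLA2* it was 0.55 (exact permutation p = 0.265, adjusted 0.398). These relations were examined after the values had been seen, both sides of each share the scaling of the library, and the part of fibre composition in the differences between genotypes was not tested.

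**Figure D3:**
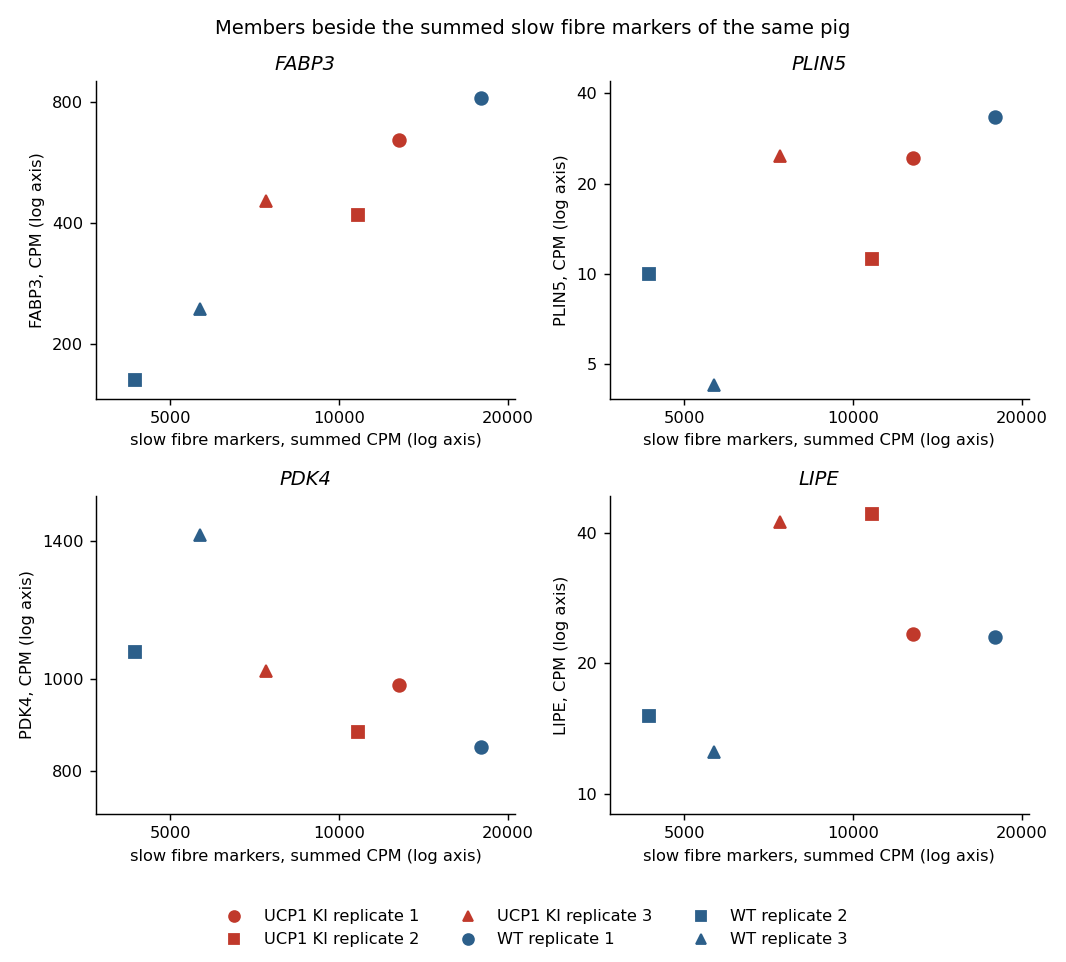
*FABP3*, *PLIN5*, *PDK4* and *LIPE* (CPM, log axes) against the summed CPM of 6 slow fibre markers (log axis) in the same pig, UCP1 KI in red and WT in blue. *FABP3* is lowest in WT replicate 2 and highest in WT replicate 1, as is the marker sum (r = 0.96), while for *LIPE* (r = 0.43) UCP1 KI replicates 2 and 3 stand above all other pigs.

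The surrounding pathway was read from 72 further genes in 7 lists, of which 70 were found and 63 were tested. In these, 4 genes passed both limits, 2 higher and 2 lower in UCP1 KI pigs. That is 6.35% of those tested, beside 8.19% of all genes. The groups did not overlap for 5 of the 63 genes, 4 higher and 1 lower in UCP1 KI pigs, beside 15.3% of all genes. Log2 fold changes were positive for 37 and negative for 26, with a median of 0.16. Positive values were 2 of 7 for uptake, 1 of 5 for activation, 8 of 10 for droplet genes and 5 of 6 for lipolysis. They were 7 of 13 for PPAR factors, 9 of 13 for PPAR targets and 5 of 9 for pyruvate dehydrogenase control. Among uptake genes 1 of 7 tested passed both limits, as lower, and 5 of the 7 log2 fold changes were negative. *GPIHBP1* was at 25.3, 19.8 and 26.1 CPM in UCP1 KI pigs against 64.0, 48.0 and 25.6 CPM in WT pigs. WT replicate 3 lay among the UCP1 KI pigs, and the log2 fold change was -0.95 (SE 0.35, edgeR p = 0.0271, exact permutation p = 0.2, adjusted p = 0.583). *GPIHBP1* is made by capillary endothelium; of 8 endothelial markers tested 1 passed both limits, *TEK*, which was higher by a log2 fold change of 1.20, and their summed level was 403 to 692 CPM in UCP1 KI pigs against 371 to 702 CPM in WT pigs. *VLDLR*, the receptor for very low density lipoprotein, had the most positive uptake value, 0.28 (adjusted p = 0.837). With each pig left out in turn, *GPIHBP1* passed both limits without WT replicate 3 and in no other such fit, and it did not pass with library size alone (-0.73).

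Among 5 activation genes 1 passed, *DBI*, the acyl-CoA binding protein, which was lower. It was at 68.2, 43.1 and 54.8 CPM in UCP1 KI pigs against 84.5, 79.1 and 84.9 CPM in WT pigs, without overlap (log2 fold change -0.58, SE 0.24, edgeR p = 0.0446, exact permutation p = 0.1, adjusted p = 0.603), and with a pig left out it passed without UCP1 KI replicate 1 alone. It did not pass with library size alone (-0.35), nor when genes with any count were kept, in edgeR (-0.56) or DESeq2 (-0.57). The synthetases with the most positive and most negative values, *ACSL4* at 0.40 (adjusted p = 0.682) and *ACSL6* at -0.86 (adjusted p = 0.794), did not pass. *ACSL6* rested on 4 to 26 reads per pig and was -0.034 without WT replicate 2. The groups did not overlap for *ACSL4*, which passed with library size alone (0.69), and *ACSL3* passed without WT replicate 2. None of 10 further droplet genes passed, from *FITM1*, which helps droplets form, at -0.56 (adjusted p = 0.657) to *DGAT2*, which makes triglyceride, at 0.50 (adjusted p = 0.722; 0.12 without UCP1 KI replicate 3). In alternatives, *FITM1* passed without WT replicate 1, *PLIN4* without WT replicate 3, and *BSCL2* without WT replicate 3 and with library size alone. The groups did not overlap for *BSCL2*, which was higher in UCP1 KI pigs (log2 fold change 0.49, adjusted p = 0.636).

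Lipolysis depends on cofactors of PNPLA2 as well as on its level. Of 6 further lipolysis genes tested 1 passed, *ABHD5*, which encodes the protein CGI-58 that activates PNPLA2. Its level was 4.95, 37.0 and 1.38 CPM in UCP1 KI replicates 1 to 3 against 3.33, 2.59 and 2.03 CPM in WT replicates 1 to 3. The difference came from UCP1 KI replicate 2, where 1319 reads were counted against 52 to 153 in the other pigs. The log2 fold change of 2.44 (SE 1.04, edgeR p = 0.048, exact permutation p = 0.5, adjusted p = 0.605) became 0.25 without that pig, and the call was also lost without WT replicate 1, 2 or 3 and when blocked by replicate number (1.20). *G0S2*, which inhibits PNPLA2, had a log2 fold change of 0.58 (adjusted p = 0.792; 0.19 without WT replicate 2 and 1.23 without WT replicate 3), and *DDHD2*, a phospholipase and triglyceride lipase, one of -0.59 (adjusted p = 0.656), which was -0.92 and passed without UCP1 KI replicate 3. The log2 ratio of *PNPLA2* within a pig differed between genotypes by -0.53 against *LIPE* (exact permutation p = 0.3), -0.17 against *G0S2* (exact permutation p = 0.8) and -0.69 against *ABHD5* (exact permutation p = 0.7). Of 7 ratios computed in all, every one overlapped between genotypes, and the adjusted p was 0.9 for each.

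Of 13 PPAR factors tested 1 passed, *RXRB*, a retinoid X receptor that pairs with PPARs. It was at 19.7, 18.0 and 23.9 CPM in UCP1 KI pigs against 13.4, 11.3 and 16.1 CPM in WT pigs, without overlap (log2 fold change 0.59, SE 0.25, edgeR p = 0.0449, exact permutation p = 0.1, adjusted p = 0.603), and with a pig left out it passed without WT replicate 3 alone. It did not pass when genes with any count were kept, in edgeR (0.61) or DESeq2 (0.59). *RXRG*, the form prominent in muscle, had the most negative value, -1.12 (adjusted p = 0.631), and WT replicate 3, at 44.2 CPM, was far above the other pigs, which lay between 5.63 and 14.8 CPM. *RXRG* passed both limits in both DESeq2 fits (-1.13 and -1.12) and when blocked by replicate number (-1.03). Its value was -1.39 without WT replicate 2, where it also passed, and -0.35 without WT replicate 3, where it did not. None of the receptors themselves passed: *PPARA* was at a log2 fold change of 0.36 (adjusted p = 0.844), *PPARD* at 0.41 (adjusted p = 0.748) and *PPARG* at -0.60 (adjusted p = 0.798). In alternatives, the coactivator *PPARGC1A* passed without UCP1 KI replicate 1 and the corepressor *NRIP1* without WT replicate 1.

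Of the 13 further PPAR targets that are reported here 0 passed, and DESeq2 called 0 of them, but *HADHB* passed without WT replicate 1, *MLYCD* without WT replicate 3, and *TXNIP* with library size alone (1.01) and without UCP1 KI replicate 1 (0.95). The target with the most negative value was *FGF21*, a secreted hormone of fasting and muscle stress, at -0.95 (adjusted p = 0.718), which rested on 12 to 81 reads per pig and was -0.29 without WT replicate 1. The one with the most positive value was *TXNIP*, an inhibitor of thioredoxin and of glucose uptake, at 0.72 (adjusted p = 0.63) and 0.30 without UCP1 KI replicate 3, and the mitochondrial carnitine palmitoyltransferase *CPT1B* was at -0.34 (adjusted p = 0.818). The groups did not overlap for *HADHA*, at 304, 310 and 313 CPM in UCP1 KI pigs against 255, 183 and 257 CPM in WT pigs (log2 fold change 0.42, adjusted p = 0.68). Of 9 genes that control pyruvate dehydrogenase 0 passed, from *PDPR* at -0.56 (adjusted p = 0.656) to *PDK1* at 0.45 (adjusted p = 0.665). *PDPR* passed when blocked by replicate number (-0.58), *PDK1* without UCP1 KI replicate 3 (0.63), and *PDK2* and *PDHA1* without WT replicate 1.

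**Figure D4:**
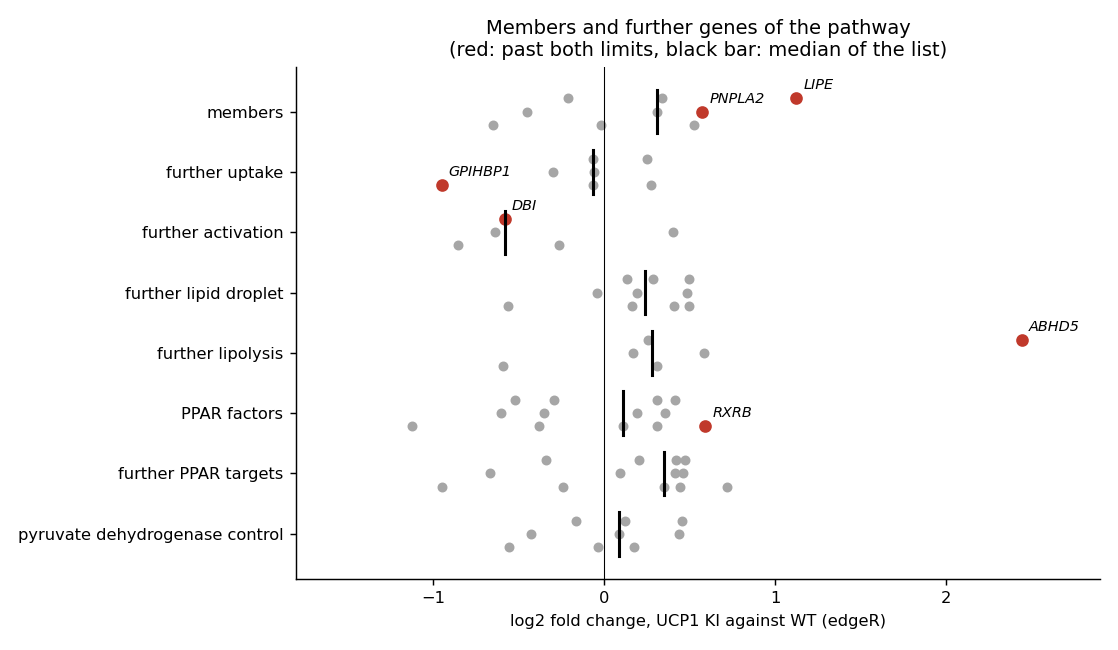
Log2 fold changes, UCP1 KI against WT, of the 9 genes described (top) and of the 63 further genes tested in 7 lists, with black bars for list medians and red points for genes past both limits. Red points lie on both sides of 0, from *GPIHBP1* at -0.95 to *ABHD5* at 2.44.

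*PDK4*, *PNPLA2* and *ANGPTL4* also respond to glucocorticoids and FoxO factors, which act in fasting and stress, and 4 of 10 genes tested in a list of such targets passed both limits, beside 8.19% of all genes tested. *CEBPD*, a transcription factor, was at 109.9, 91.1 and 118 CPM in UCP1 KI replicates 1 to 3 against 17.6, 39.0 and 24.1 CPM in WT replicates 1 to 3, without overlap (log2 fold change 1.98, SE 0.33, edgeR p = 0.000398, exact permutation p = 0.1, adjusted p = 0.28). It passed both limits in all 13 alternatives, and its adjusted p was 5.02e-05 with DESeq2 on the same genes. The muscle ubiquitin ligases *FBXO32* and *TRIM63* were higher by 1.60 (edgeR p = 0.028, adjusted p = 0.583, exact permutation p = 0.2) and 1.61 (edgeR p = 0.0416, adjusted p = 0.603, exact permutation p = 0.3) on the log2 scale, with UCP1 KI replicate 3 far above the other pigs, at 1057 and 1733 CPM. Without that pig the values were 0.62 and 0.46 and neither passed, nor did either without WT replicate 1 or 2. *SGK1*, a kinase, was lower by a log2 fold change of -1.13 (edgeR p = 0.0422, adjusted p = 0.603, exact permutation p = 0.2), with overlapping groups, and the call was lost without UCP1 KI replicate 2 or 3 or WT replicate 1 or 2 and with library size alone (-0.96). Without WT replicate 1 its value was -0.55. Beside them, *PDK4* and *ANGPTL4* had log2 fold changes of -0.21 and -0.65 and did not pass. Whether these genes and the lipases moved together was not tested.

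Red blood cell markers, 4 found and 3 tested, summed to 11.4 to 76.0 CPM in UCP1 KI pigs against 104 to 180.1 CPM in WT pigs, without overlap, and 0 of the 3 passed both limits. Macrophage markers summed to 46.9 to 194 CPM and 51.7 to 132 CPM, and 1 of 10, *ITGAM*, passed both limits, as higher, with 9 of the 10 log2 fold changes positive. Fast fibre markers summed to 15400 to 50295 CPM in UCP1 KI pigs against 30431 to 79698 CPM in WT pigs. Of 6 fast fibre markers tested 0 passed both limits, and 5 of the 6 log2 fold changes were negative, with a median of -0.58. The part of these cell and fibre types in the lipase values was not tested.

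Over the 6 pigs, the genes whose log2 levels most resembled the mean standardised profile of the 9 genes were *TRNP1* (Pearson r 0.993), *ACADVL* (0.987), *NUP58* (0.986), *CXXC5* (0.982) and *NFKBID* (0.982). They were picked as the highest r among all tested genes with a symbol, so values this high over 6 pigs are no evidence of a relation. The 9 genes did not move as 1 group, as r between pairs of them ranged from -0.89 (*PLIN5* and *LPL*) to 0.93 (*LIPE* and *PNPLA2*). *ACADVL* encodes the dehydrogenase that opens mitochondrial oxidation of very long chain fatty acids, and its log2 fold change was 0.35 (SE 0.32, adjusted p = 0.781).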

How the data were processed

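Muscle RNA of 6 pigs was analysed. Per the processing notes and the paper's methods, the authors filtered paired-end reads with Trimmomatic 0.36, mapped them to Sscrofa11.1 with HISAT2 2.0, computed expression with StringTie 1.3.3b and tested counts with DESeq2 1.12.4; the program that counted reads and the annotation release are not given in the sources used here. The authors deposited raw counts per gene, without normalization. Here, edgeR 4.0.16 in R 4.3.3 tested all genes kept by filterByExpr (TMM factors, quasi-likelihood F test, group as the only term, two-sided, common dispersion 0.178), and a gene passed the study's limits with p under 0.05 before adjustment and a log2 fold change beyond 0.5 either way. CPM used TMM-scaled totals, SDs are over 3 pigs, and the floor for a gene without reads, 3 counts, was 0.0794 to 0.110 CPM (counting error only). Within-pig ratios used counts + 0.5, and exact permutation tests enumerated 20 assignments. Symbols came from an Ensembl name table (14864 identifiers paired) and positions from RefSeq, Sscrofa11.1. The procedure was tested on simulated data. Alternatives were DESeq2 1.42.0, other scaling and filters, the replicate number as a block and each pig left out. The members and lists were chosen with earlier results of these data known. From each further list, genes past both limits and those with the most positive and most negative value were named. *PPARA*, *PPARD*, *PPARG*, *PPARGC1A*, *NRIP1*, *ACSL3*, *CPT1B*, *HADHA*, *HADHB*, *MLYCD*, *PLIN4*, *BSCL2*, *PDHA1*, *DMAC2*, *ASB4* and the marker genes were added after their values were seen. A gene of these lists is not reported here and is left out of their counts. No sequences are shown.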

Additional observations from a re-analysis of the deposited data

How the results depend on the processing

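*LIPE* passed both limits in all 13 alternatives. Of the 9 lipid handling genes 1, *LIPE*, passed with all genes with any count, with at least 10 counts in every pig and under a block for replicate number, and *PNPLA2* was not called there; between 1 and 4 passed with each pig left out (4 without WT replicate 1). Whether replicate numbers pair the pigs is not given in the sources used here, and correlations of deviations from means of 3 pigs cannot decide it. Those of same-numbered pigs were 0.0038, 0.094 and 0.28, the last the highest of all pairs. UCP1 KI replicate 1 correlated best with WT replicate 2 (0.13) and UCP1 KI replicate 2 with WT replicate 1 (0.10). The block gave 1114 genes past both limits in place of 1097. With each pig left out, between 678 (without UCP1 KI replicate 2) and 1541 genes passed (718 without WT replicate 2). Of the further pathway genes 2 passed with all genes with any count and between 0 (without UCP1 KI replicate 2) and 5 with each pig left out (2 without WT replicate 2). The median log2 fold change of the 9 genes ranged from -0.073 (without WT replicate 2) to 0.67. Library size alone raised the median of all genes by 0.25 and gave 929 higher genes of 1124 called, against 515 of 1097; relative to that median *LIPE* was at 1.14 and *PNPLA2* at 0.57. Directions turned for *ACSL1* (0.19 with library size alone, 0.0028 with all genes with any count, -0.24 to 0.23 with each pig left out) and *PDK4* (0.059 with library size alone, -0.37 to 0.0094 with each pig left out). They also turned with a pig left out for *LPL* (-1.82 to 0.050), *FABP3* (-0.073 to 1.32), *PLIN5* (-0.11 to 1.49) and *PDK2* (-0.073 to 0.62). Ratios turned with a pig left out for *LPL* to *ANGPTL4* (-1.09 to 1.42), *LPL* to *GPIHBP1* (-0.83 to 0.98), *PLIN5* to *PLIN2* (-0.78 to 0.90), *PNPLA2* to *G0S2* (-0.73 to 0.28) and *PNPLA2* to *ABHD5* (-1.87 to 0.58). The cause was not tested. With 3 pigs a group, the intervals given are the precision of these values, and genes with few reads, such as *ACSL6* (4 to 26 per pig) and *FGF21* (12 to 81 per pig), are also limited by depth.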
